A study of Mus musculus with 92 samples.

Results

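The genes described here belong to the integrated stress response and to the amino acid supply that it controls. The list held 35 mouse genes, taken by gene symbol, of the 56953 gene identifiers in the deposited tables. All 35 were found. By role they were 5 genes of the stress kinases and their substrate, 6 transcription factors, 7 genes of feedback, translational braking and secretory stress, 5 of serine, glycine and one-carbon synthesis, 6 of asparagine, proline, alanine and cysteine synthesis, and 6 of amino acid transport and tRNA export.

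The cells were mouse embryonic stem cells of the B6 background in which subunits of the ETS-family transcription factor GABP carried a degron, a tag that lets the small molecule dTAG-13 send the protein to the proteasome. GABPA is the DNA-binding subunit, and GABPB1 and GABPB2 are alternative partner subunits. RNA-seq covered 3 lines (GabpadTAG/dTAG, Gabpb1dTAG/dTAG and Gabpb1/b2dTAG/dTAG), each treated for 12 h with DMSO or with 500 nM dTAG-13, which gave 6 groups of 2 biological duplicates. SLAM-seq, which reads newly made RNA from T-to-C conversions after labelling with 4-thiouridine (500 uM), covered the GabpadTAG/dTAG line only, in 7 groups of 2 duplicates: DMSO and dTAG-13 at 1 h, dTAG-13 at 2 h and at 4 h with 1 DMSO group, titled for 2-4 h and labelled 2 h, shared by both, and DMSO and dTAG-13 at 12 h. All cells grew in serum with LIF, PD0325901 and CHIR99021, in a medium that already carried non-essential amino acids, L-glutamine and 2-mercaptoethanol, and the sources used here do not give the number of clones behind each line. The lines are called the GABPA, GABPB1 and GABPB1/GABPB2 lines below.

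In the integrated stress response, kinases that sense different stresses phosphorylate the translation initiation factor eIF2. Phosphorylated eIF2 lowers protein synthesis in general while the mRNA of the transcription factor ATF4 is translated more, so the pathway can act without any change in Atf4 mRNA. ATF4, often paired with a C/EBP family protein, then raises genes for amino acid synthesis, amino acid uptake and tRNA charging, together with feedback genes that end the response. The RNA measured here shows the output side of that pathway and the mRNA of its parts. Phosphorylation and protein levels were not measured in these data.

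Promoters of 4 genes are shown first, picked by motif and by response together, with the results known. They therefore do not show how often a motif goes with a change. Eif2ak1 and Psat1 fell after GABPA degradation and carried the ETS core CCGGAAG. Nupr1 and Asns carried TGATGNAA, the core of the composite element that ATF4 binds with a C/EBP partner. Each sequence reads 5′ to 3′ on the strand of its gene and comes from RefSeq on GRCm38.p6, with the motifs found on either strand in capitals and the rest in lower case.
Eif2ak1 (chr5:143817542-143817841, plus strand): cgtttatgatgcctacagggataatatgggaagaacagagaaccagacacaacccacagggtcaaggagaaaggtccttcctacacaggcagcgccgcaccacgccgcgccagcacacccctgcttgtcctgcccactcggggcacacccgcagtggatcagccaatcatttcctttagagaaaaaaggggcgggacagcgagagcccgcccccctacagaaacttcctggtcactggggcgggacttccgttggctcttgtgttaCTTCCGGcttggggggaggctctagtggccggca
Psat1 (chr19:15924573-15924872, minus strand): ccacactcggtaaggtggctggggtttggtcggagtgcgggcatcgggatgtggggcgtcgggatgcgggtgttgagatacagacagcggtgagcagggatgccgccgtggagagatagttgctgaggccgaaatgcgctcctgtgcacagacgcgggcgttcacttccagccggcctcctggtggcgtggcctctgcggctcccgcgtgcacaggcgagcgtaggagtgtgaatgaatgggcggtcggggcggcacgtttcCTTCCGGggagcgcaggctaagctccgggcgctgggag
Asns (chr6:7693160-7693459, minus strand): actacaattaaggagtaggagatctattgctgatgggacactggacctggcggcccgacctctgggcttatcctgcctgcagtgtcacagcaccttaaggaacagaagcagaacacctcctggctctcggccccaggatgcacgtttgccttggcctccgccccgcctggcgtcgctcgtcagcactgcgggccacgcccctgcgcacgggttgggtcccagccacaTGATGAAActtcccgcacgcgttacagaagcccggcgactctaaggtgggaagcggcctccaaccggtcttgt
Nupr1 (chr7:126625421-126625720, minus strand): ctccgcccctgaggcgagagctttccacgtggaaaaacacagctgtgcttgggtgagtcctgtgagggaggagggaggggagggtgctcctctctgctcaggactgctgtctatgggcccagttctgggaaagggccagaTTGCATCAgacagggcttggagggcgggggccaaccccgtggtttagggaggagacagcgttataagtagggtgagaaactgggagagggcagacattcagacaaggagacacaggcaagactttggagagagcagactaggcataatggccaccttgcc
In the Eif2ak1 and Psat1 promoters the capitals read CTTCCGG, the other strand of CCGGAAG, and began 16 and 12 bases after the start site. In Asns the capitals read TGATGAAA and began 23 bases before the start. In Nupr1 they read TTGCATCA, the other strand of TGATGNAA, 110 bases before the start. A second Psat1 promoter in the RefSeq table (chr19:15925010-15925309) held neither motif.

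Of the 35 genes, 31 had an entry in the promoter table, with 36 promoters between them. CCGGAAG, searched on both strands, was found for 5 genes (Eif2ak1, Ddit3, Shmt2, Slc3a2 and Psat1), against 8.86% of all 32851 promoters of the same length. TGATGNAA was found for 8 genes (Chac1, Trib3, Slc7a11, Asns, Nupr1, Herpud1, Pycr1 and Vldlr), against 3.97% of all promoters. TGACGTCA, the cAMP response element, was found for 1 gene (Ppp1r15a), against 1.79% of all promoters. The shares are counted by promoter. Counted in that way, the motifs were found in 5, 8 and 1 of the 36 promoters, in the same order. These matches describe letters in a short window. Of the 5 genes with CCGGAAG, Eif2ak1 and Psat1 fell in RNA-seq of the GABPA line, Ddit3 rose, and Shmt2 and Slc3a2 were not called.

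RNA-seq libraries held between 15957952 and 32091571 counts. SLAM-seq libraries held between 11477034 and 30690961 reads, and between 936622 and 4248509 reads with conversions. All 10 embryonic stem cell markers stood at 1 TPM or more in both libraries of every RNA-seq group. The 10 fibroblast or feeder markers summed to between 4.25 and 9.17 TPM, with Lum at 0 in every library. Some markers were called in the GABPA line by the test below. Of the 10 stem cell markers 3 rose and 1 fell, and of 6 tested feeder markers 2 rose. Of 4 mesoderm markers 2 fell, of 4 primitive endoderm markers 2 rose, of 4 neural markers 1 fell and of 3 tested trophoblast markers 1 rose. Over all genes, 24.6% rose and 21.9% fell. The degron acts on protein, so the mRNA of the tagged gene does not check the labels: Gabpa mRNA was 0.50 higher on the log2 scale after 12 h of dTAG-13 in the GABPA line. Changes below are log2 fold changes of dTAG-13 over DMSO with their standard error, from edgeR's quasi-likelihood test. A gene was called at a Benjamini-Hochberg adjusted p under 0.05 over all genes tested, and levels are CPM, counts scaled by the TMM-normalised library total. In bulk RNA, fewer cells of a kind and less RNA per cell cannot be told apart. With 2 libraries in a group, the spread between duplicates was estimated together over all groups of an assay. A p-value thus does not measure the spread of only the 2 groups compared, nor that between independent lines.

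The SLAM-seq control groups were not alike for these genes, and this bears on every SLAM-seq result below. In all reads, converted or not, the 12 h DMSO libraries stood above the DMSO libraries shared by the 2 h and 4 h comparisons for 22 of the 35 genes and below them for 2, against 18.5% of all genes higher and 16.1% lower. The 1 h DMSO libraries stood above the same shared DMSO libraries for 22 and below for 0, against 13.9% and 11.7% of all genes (at an unadjusted p under 0.05, edgeR gave 24 higher and 2 lower). On converted reads, the measure of most SLAM-seq results below, the calls in either direction numbered 19 for 12 h and 11 for 1 h. The shares of all genes given here are those of all reads, and the shares for converted reads are not given. Chac1, which degrades glutathione, lay at 0.973 and 0.570 CPM in the shared DMSO libraries, 16.7 and 11.6 CPM at 1 h and 9.16 and 11.9 CPM at 12 h. Atf4 itself lay at 129 and 106 CPM in the shared DMSO libraries and at 236 and 270 CPM at 12 h (log2 change 1.11 ± 0.149, adjusted p = 8.03e-05). The median change of the 35 genes was 0.98 for 12 h and 0.79 for 1 h, beside -0.13 and -0.10 over all genes. These comparisons of DMSO groups were chosen after the data were seen. What made the DMSO cells differ was not tested, so each dTAG-13 group is compared with its own DMSO group below and also placed among all 6 DMSO libraries.

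After 12 h without GABPA the list split, with more genes lower than higher. In RNA-seq of the GABPA line, 14 of the 35 genes fell and 5 rose, against 21.9% of all genes lower and 24.6% higher. Their median change was -0.17, beside 0.06 over all genes. The GABPB1/GABPB2 line had 8 genes lower and 0 higher, against 9.26% and 3.53% of all genes. All shares in this paragraph are of the fit over all RNA-seq libraries, and those of fits on a single line are not given. At an unadjusted p under 0.05 the edgeR test gave 2 genes higher in the GABPB1/GABPB2 line, and DESeq2 also gave 2. At an adjusted p under 0.05 DESeq2 called 0 higher and 7 lower there. A fit on that line's own libraries called 2 genes lower, and leaving out single libraries gave 3 to 10, with Stc2 and Eif2ak1 called in each of those fits. The GABPB1 line had changes above 0 for 27 of the 35 genes, with 4 called higher and 2 lower, against 1.28% and 5.46% of all genes, and a median change of 0.10. A fit on the libraries of the GABPB1 line alone called 13 genes higher, and leaving out single libraries of that line left 0 or 1, so that count depended on the libraries in the fit.

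**Figure D1:**
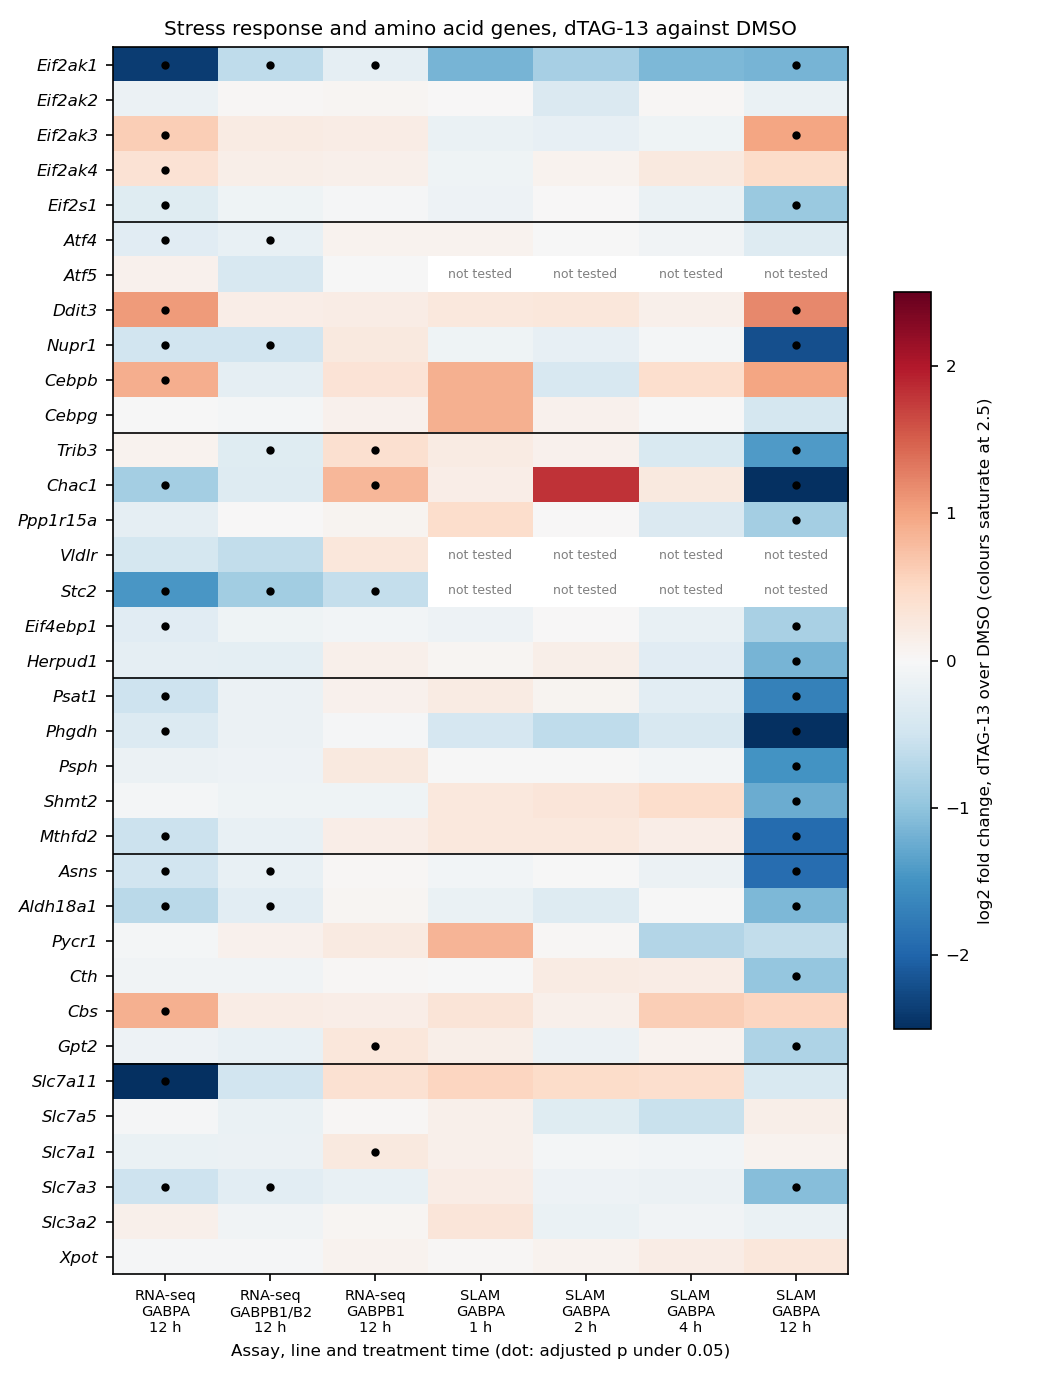
Log2 fold change (dTAG-13 over DMSO, colour scale) of the 35 genes in each RNA-seq and SLAM-seq comparison, with genes in rows grouped by role. Marks show genes called at an adjusted p under 0.05. All calls lie in the 12 h columns, and the colours saturate at a change of 2.5.

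Newly made RNA showed no called change of any of these genes in the first hours and a broad fall at 12 h. Of the 35 genes, 32 had enough converted reads to be tested (not Atf5, Stc2 and Vldlr). At 1 h the edgeR test called 0 genes, against 0.0567% of all genes higher and 1.72% lower. At 2 h it called 0, against 0.145% and 3.21%, and at 4 h again 0, against 0.113% and 3.91%. The unadjusted p was under 0.05 for Cebpg (higher) and Eif2ak1 (lower) at 1 h, for Chac1 (higher) and Eif2ak1 (lower) at 2 h, and for Eif2ak1 (lower) at 4 h, and DESeq2 called 0 at each of these times. At 12 h, 18 genes fell and 2 rose, against 18.3% of all genes lower and 12.3% higher. The median of the 32 genes was then -0.83, beside 0.04 over all genes. Converted reads were scaled within each library, so a change shared by all genes would not show. The converted share of all reads was 9.057 to 9.869% after 2 h and 8.582 to 9.337% after 4 h of dTAG-13. Their shared DMSO group had 10.421 to 11.347%. At 12 h the share was 12.054 to 13.843% with dTAG-13 and 13.986 to 14.125% in DMSO. Whether newly made RNA fell in general was not tested.

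The sensor kinases changed in opposite directions, and the largest response of the whole list in RNA-seq, apart from the sparsely read Slc7a11, was that of Eif2ak1. It encodes HRI, the kinase that senses heme shortage and relays mitochondrial stress (identifier ENSMUSG00000029613.16, chr5:143803543-143841069 on mm39). In the GABPA line its level went from 88.2 and 84.4 CPM in DMSO to 17.0 and 16.4 CPM (log2 change -2.37 ± 0.0800, adjusted p = 4.74e-13). The GABPB1/GABPB2 line went from 80.4 and 82.8 CPM to 50.1 and 55.7 CPM (log2 change -0.63 ± 0.0695, adjusted p = 7.13e-06). The GABPB1 line went from 79.6 and 80.2 CPM to 67.1 and 68.8 CPM (log2 change -0.23 ± 0.0662, adjusted p = 0.0421). The DMSO levels were close in all 3 lines and the treated levels were graded without overlap, lowest in the GABPA line. The call in the GABPB1 line was lost when single libraries were left out. Eif2ak1 overlaps Aimp2, and no source used here gives the strand handling of the counting.

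Newly made Eif2ak1 RNA was already lower in the first samples taken. Converted reads gave 43.1 and 33.9 CPM in 1 h DMSO and 16.4 and 17.9 CPM after 1 h of dTAG-13 (log2 change -1.16 ± 0.347, adjusted p = 0.108). They gave 44.0 and 25.5 CPM in the shared DMSO group, 17.8 and 21.4 CPM after 2 h (log2 change -0.83 ± 0.303, adjusted p = 0.183) and 11.8 and 19.0 CPM after 4 h (log2 change -1.13 ± 0.326, adjusted p = 0.0503). At each of these times the treated libraries lay below their DMSO libraries, and none of the 3 changes passed the test. The reads behind them were few, 40 and 38 converted reads in 1 h DMSO and 18 and 17 after 1 h of dTAG-13. At 12 h the level fell from 37.4 and 32.0 CPM to 14.7 and 16.4 CPM (log2 change -1.17 ± 0.286, adjusted p = 0.00308).

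All reads of the same libraries followed later. Eif2ak1 lay at 73.5 and 73.4 CPM in the shared DMSO group, 58.9 and 60.1 CPM after 2 h and 41.4 and 52.0 CPM after 4 h, when it was called (log2 change -0.65 ± 0.132, adjusted p = 0.0128). Of the 35 genes it alone was called in all reads at 4 h, where 0.0334% of all genes were higher and 2.1% lower. After 12 h all reads had gone from 115 and 109 CPM to 28.4 and 27 CPM (log2 change -2.01 ± 0.136, adjusted p = 1.64e-08).

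Of the other kinases, 2 rose and 1 was not called. Eif2ak3 encodes PERK, the kinase of the endoplasmic reticulum, and went from 32.5 and 34.5 CPM to 49.1 and 54.1 CPM in RNA-seq of the GABPA line (log2 change 0.62 ± 0.0862, adjusted p = 1.41e-05). Eif2ak4 encodes GCN2, which senses uncharged tRNA, and went from 45.2 and 42.2 CPM to 54.6 and 57.3 CPM (log2 change 0.36 ± 0.0760, adjusted p = 0.000917). Eif2ak2, the double-stranded RNA sensor PKR, lay at 20.6 and 22.8 CPM (DMSO) against 16.7 and 22.3 CPM (dTAG-13), with overlapping groups (log2 change -0.15, adjusted p = 0.297). Per length, Eif2ak1 was the highest of the 4 kinases in DMSO of the GABPA line at 27.64 and 26.49 TPM, and after dTAG-13 it lay near Eif2ak2, at 5.26 and 5.03 TPM against 5.20 and 6.88 TPM. Eif2ak3 then had the most kinase mRNA per length with Eif2ak4, at 14.55 and 15.88 TPM and at 14.57 and 14.96 TPM.

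In the partner-subunit lines these 3 kinases did not pass the test. Eif2ak3 lay at 25.2 and 28.2 CPM (DMSO) against 29.6 and 32.0 CPM (dTAG-13) in the GABPB1/GABPB2 line, and at 31.1 and 33.0 CPM against 37.4 and 35.6 CPM in the GABPB1 line. Eif2ak4 lay at 39.7 and 43.9 CPM against 47.1 and 45.2 CPM, and at 52.2 and 51.0 CPM against 57.2 and 56.1 CPM, in the same order. Eif2ak2 lay between 24.9 and 27 CPM in all 8 of these libraries.

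Newly made Eif2ak3 RNA rose at 12 h from 22.6 and 23.5 CPM to 44.8 and 47.1 CPM (log2 change 0.99 ± 0.235, adjusted p = 0.00245). The 12 h DMSO level was the lowest of the controls: Eif2ak3 lay between 41.0 and 63.2 CPM in the other 4 DMSO libraries, so the treated 12 h libraries were inside the control range. New Eif2ak4 RNA lay at 21.7 and 23.5 CPM against 29.8 and 32.3 CPM at 12 h (log2 change 0.45, adjusted p = 0.193), and Eif2ak2 at 22.6 and 15.8 CPM against 19.7 and 13.6 CPM. Eif2s1, the eIF2 subunit that the kinases phosphorylate, went from 253 and 241 CPM to 186 and 215 CPM in RNA-seq of the GABPA line (log2 change -0.30 ± 0.0734, adjusted p = 0.00295). Without the first dTAG-13 library the change was -0.20 and the call was lost (adjusted p = 0.0541). Its new RNA fell from 494 and 433 CPM to 239 and 249 CPM at 12 h (log2 change -0.93 ± 0.161, adjusted p = 9.59e-05).

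Atf4 mRNA fell with dTAG-13 in 2 of the 3 lines. In RNA-seq it went from 378 and 402 CPM to 314 and 323 CPM in the GABPA line (log2 change -0.29 ± 0.0566, adjusted p = 0.000424). The GABPB1/GABPB2 line went from 225 and 227 CPM to 204 and 191 CPM (log2 change -0.19 ± 0.0572, adjusted p = 0.0328, lost when single libraries were left out), and the GABPB1 line lay at 212 and 216 CPM against 224 and 231 CPM. The DMSO libraries of the GABPA line thus lay above those of the other lines. In new RNA the level at 12 h was 631 and 719 CPM in DMSO and 553 and 526 CPM after dTAG-13 (log2 change -0.32, adjusted p = 0.132), while all reads fell (log2 change -0.67 ± 0.148, adjusted p = 0.00133).

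The other factors of the group diverged. Ddit3, which encodes the pro-apoptotic factor CHOP, rose from 5.05 and 3.51 CPM to 10.3 and 7.43 CPM in RNA-seq of the GABPA line (log2 change 1.06 ± 0.197, adjusted p = 0.000282). It lay at 5.81 and 5.12 CPM against 6.24 and 6.11 CPM in the GABPB1/GABPB2 line and at 4.92 and 5.50 CPM against 5.58 and 6.20 CPM in the GABPB1 line. New Ddit3 RNA rose at 12 h from 22.6 and 18.5 CPM to 48.9 and 45.9 CPM (log2 change 1.21 ± 0.260, adjusted p = 0.001). In the other DMSO libraries it lay between 29.6 and 50.7 CPM, and in all reads at 12 h it lay at 26.0 and 26.7 CPM against 26.9 and 23.8 CPM, a change of -0.05 (adjusted p = 0.743). Ddit3 overlaps Mars, so reads of the 2 genes may have been shared.

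Cebpb, a partner of ATF4 and of CHOP, rose from 4.22 and 4.00 CPM to 9.04 and 6.49 CPM in RNA-seq of the GABPA line (log2 change 0.92 ± 0.206, adjusted p = 0.00147). Cebpg, another partner of ATF4, lay between 21.9 and 23.6 CPM in the same 4 libraries. In all SLAM-seq reads at 12 h Cebpg fell (log2 change -0.70 ± 0.182, adjusted p = 0.00425), while Cebpb was not called (log2 change 0.29, adjusted p = 0.526). Atf5, a related factor also controlled by translation, lay at 20.7 and 22.4 CPM against 24.9 and 21.6 CPM in the GABPA line, 13.3 and 10.4 CPM against 9.72 and 8.32 CPM in the GABPB1/GABPB2 line and 11.4 and 11.5 CPM against 11 and 11.8 CPM in the GABPB1 line. It passed no test against DMSO, and its converted reads were too few, at 0 to 5.54 CPM. Reads of Atf5 may be shared with the overlapping Il4i1 and Nup62, and likewise those of Cebpb with Tmem189, of Psph with Cct6a and of Ppp1r15a with Tulp2.

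Nupr1, a small stress-induced chromatin protein, fell in RNA-seq of the GABPA line from 16.2 and 18.7 CPM to 11.9 and 13.3 CPM (log2 change -0.47 ± 0.141, adjusted p = 0.0108). Its GABPB1/GABPB2 values were 15.9 and 13.5 CPM against 12.2 and 8.92 CPM (log2 change -0.47 ± 0.141, adjusted p = 0.0345), and both calls were lost when single libraries were left out. In the GABPB1 line it lay at 7.37 and 7.83 CPM against 8.87 and 9.10 CPM. New Nupr1 RNA fell much more at 12 h, from 210 and 211 CPM to 44.0 and 47.6 CPM (log2 change -2.21 ± 0.180, adjusted p = 1.76e-09), while the shared DMSO libraries of 2 h and 4 h lay at 52.9 and 54.6 CPM and the 1 h DMSO libraries at 243 and 203 CPM.

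**Figure D2:**
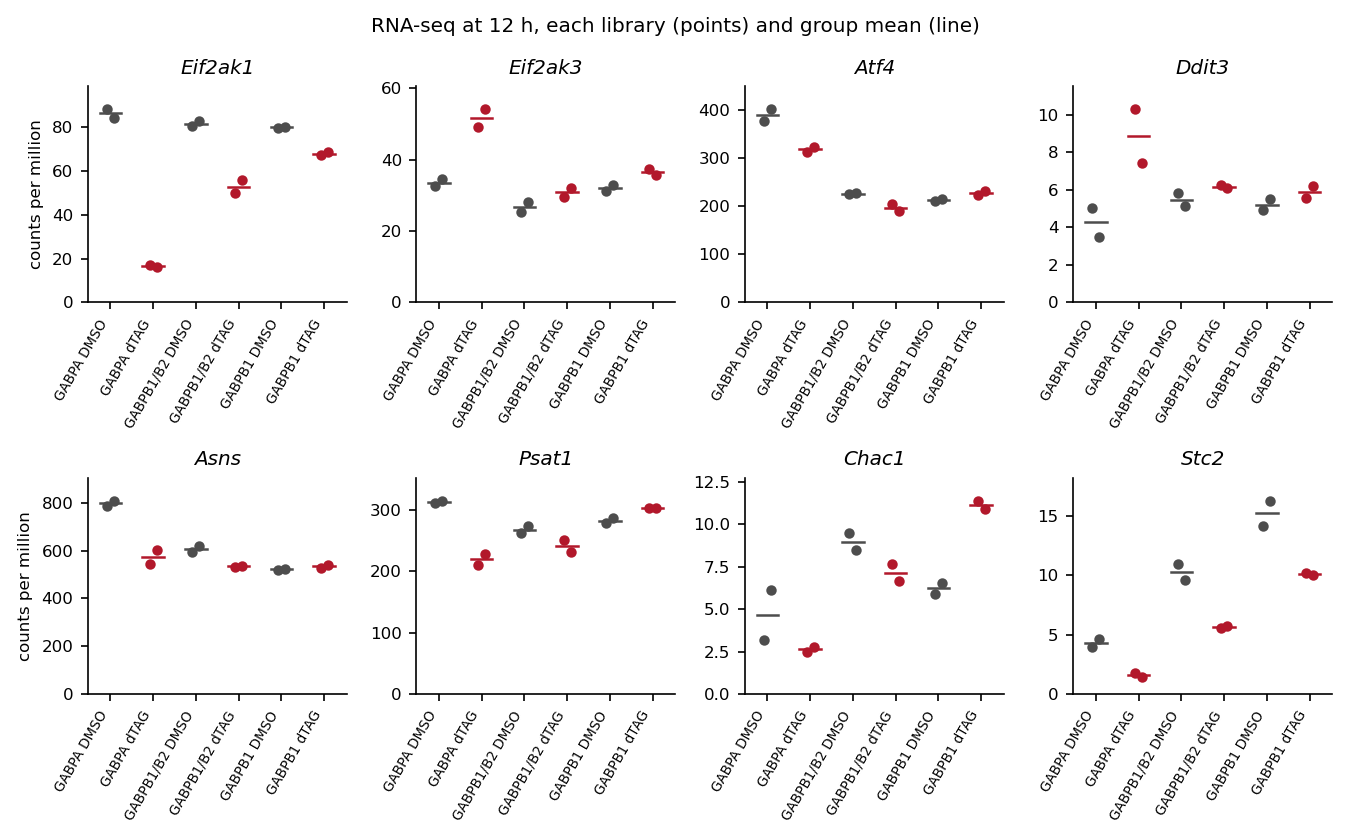
RNA-seq level (CPM, linear axis from 0) of selected genes in every library of the 3 lines, DMSO and dTAG-13 side by side. Each point is 1 library and each line a group mean. Eif2ak1 fell in each line, from between 79.6 and 88.2 CPM in DMSO to 16.4 to 17.0 CPM in the GABPA line.

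Of the 7 feedback and secretory stress genes, 3 fell and 0 rose in RNA-seq of the GABPA line (Chac1, Stc2 and Eif4ebp1), and the calls of Chac1 and of Trib3 differed in sign between lines. Chac1 lay at 3.21 and 6.13 CPM (DMSO) against 2.48 and 2.77 CPM (dTAG-13) in the GABPA line (log2 change -0.85 ± 0.252, adjusted p = 0.0104). That call rests on the second DMSO library, since without it the change was -0.29 (adjusted p = 0.381). Chac1 rose in the GABPB1 line, from 5.90 and 6.57 CPM to 11.4 and 10.9 CPM (log2 change 0.84 ± 0.177, adjusted p = 0.00714), and lay at 9.47 and 8.50 CPM against 7.66 and 6.64 CPM in the GABPB1/GABPB2 line.

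Trib3, a pseudokinase that restrains ATF4, was not called in the GABPA line, at 21.2 and 22.9 CPM against 23.0 and 24.1 CPM. It rose in the GABPB1 line from 28.1 and 28.6 CPM to 37.5 and 37.8 CPM (log2 change 0.41 ± 0.0805, adjusted p = 0.00433), and fell in the GABPB1/GABPB2 line from 29.5 and 27.9 CPM to 24.8 and 21.3 CPM (log2 change -0.31 ± 0.0883, adjusted p = 0.0263). Leaving out single libraries lost the calls of both genes in those lines, and the partner-subunit lines were not tested against each other. Stc2, a secreted glycoprotein induced by PERK and ATF4, fell in all 3 lines. Its level went from 3.92 and 4.65 CPM to 1.73 and 1.42 CPM in the GABPA line (log2 change -1.45 ± 0.208, adjusted p = 2.05e-05), from 11 and 9.64 CPM to 5.6 and 5.75 CPM in the GABPB1/GABPB2 line (log2 change -0.87 ± 0.141, adjusted p = 0.000362) and from 14.2 and 16.3 CPM to 10.2 and 10.0 CPM in the GABPB1 line (log2 change -0.60 ± 0.118, adjusted p = 0.00439). The treated and DMSO libraries did not overlap in any line, and the GABPB1 call was lost without single libraries.

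New RNA of all 5 tested genes of this group fell at 12 h. Chac1 went from 34.2 and 43.8 CPM to 6.26 and 5.67 CPM (log2 change -2.67 ± 0.319, adjusted p = 6.61e-07), and Trib3 from 122 and 131 CPM to 55.4 and 37.4 CPM (log2 change -1.41 ± 0.216, adjusted p = 2.1e-05). Herpud1, a degradation factor of the endoplasmic reticulum, went from 178 and 116 CPM to 74.1 and 55.6 CPM (log2 change -1.16 ± 0.201, adjusted p = 9.58e-05), against 18.1 and 21.3 CPM to 17.0 and 16.9 CPM in RNA-seq, which was not called (the GABPB1/GABPB2 values were 13.5 and 12 CPM against 9.97 and 11.8 CPM, and those of the GABPB1 line 12 and 12.3 CPM against 13 and 13.4 CPM). These 3 genes had lower DMSO levels at 2 to 4 h than at 12 h: Chac1 2.75 and 1.53 CPM, Trib3 20.4 and 18.4 CPM, Herpud1 47.3 and 39.8 CPM. Both treated 12 h libraries of each gene lay above those values. Ppp1r15a, the GADD34 subunit that removes the phosphate from eIF2, changed by -0.86 (adjusted p = 0.00325, and 0.0591 without the second dTAG-13 library) and Eif4ebp1, a brake on cap-dependent translation, by -0.80 (adjusted p = 0.000727). In RNA-seq of the GABPA line Eif4ebp1 changed by -0.29 (adjusted p = 0.0131), a call lost without the second DMSO library (adjusted p = 0.151) or the second dTAG-13 library (adjusted p = 0.124), while Ppp1r15a (log2 change -0.22, adjusted p = 0.0979) and the lipoprotein receptor gene Vldlr (log2 change -0.43, adjusted p = 0.329) were not called.

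The serine pathway fell as a group in new RNA. All 5 genes of serine, glycine and one-carbon synthesis fell at 12 h, with a median change of -1.68. Phgdh, the first enzyme of serine synthesis, went from 46.2 and 40.6 CPM to 6.02 and 3.40 CPM (log2 change -3.08 ± 0.358, adjusted p = 4.33e-07), the largest fall of the 32 genes. Mthfd2, a mitochondrial folate enzyme, went from 489 and 501 CPM to 141 and 120 CPM (log2 change -1.92 ± 0.186, adjusted p = 2.75e-08). Psat1, the second serine enzyme, went from 304 and 312 CPM to 95.8 and 96.4 CPM (log2 change -1.68 ± 0.159, adjusted p = 1.85e-08). The 12 h treated levels of these 3 genes were close to the untreated shared group of 2 h and 4 h, which had 8.81 and 5.61 CPM for Phgdh, 118 and 102 CPM for Mthfd2 and 97.4 and 94.8 CPM for Psat1. Psph, the last enzyme of serine synthesis, went from 119 and 129 CPM to 47.2 and 40.3 CPM (log2 change -1.49 ± 0.246, adjusted p = 5.31e-05). Shmt2, which makes glycine in mitochondria, went from 114 and 111 CPM to 61.1 and 30.6 CPM (log2 change -1.23 ± 0.241, adjusted p = 0.000368).

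In RNA-seq the same pathway moved less. In the GABPA line Psat1 fell from 311 and 315 CPM to 211 and 228 CPM (log2 change -0.51 ± 0.0599, adjusted p = 2.12e-06) and Mthfd2 from 198 and 206 CPM to 136 and 142 CPM (log2 change -0.54 ± 0.0650, adjusted p = 2.96e-06). Phgdh fell from 193 and 205 CPM to 163 and 152 CPM (log2 change -0.34 ± 0.0753, adjusted p = 0.00137). The remaining members were not called: Psph lay at 30.7 and 31.4 CPM against 26.8 and 29.2 CPM, and Shmt2 at 267 and 304 CPM against 285 and 267 CPM. No gene of this group was called in either partner-subunit line, where the median changes were -0.15 (GABPB1/GABPB2) and 0.10 (GABPB1). Psat1 there lay at 262 and 274 CPM against 251 and 232 CPM and at 279 and 286 CPM against 303 and 303 CPM.

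The other serine genes showed small differences in the partner-subunit lines. In the GABPB1/GABPB2 line Mthfd2 had 87.8 and 92.3 CPM against 82.8 and 74.5 CPM with dTAG-13, Phgdh 157 and 137 CPM against 137 and 128 CPM, Psph 29.3 and 29.1 CPM against 25.8 and 27.4 CPM, and Shmt2 218 and 194 CPM against 196 and 186 CPM. In the GABPB1 line Mthfd2 had 94.8 and 98.9 CPM against 110 and 107 CPM, Phgdh 135 and 148 CPM against 142 and 134 CPM, Psph 24.9 and 25.2 CPM against 30.2 and 29.4 CPM, and Shmt2 216 and 235 CPM against 212 and 209 CPM. Mthfd2 and Psph thus lay lower with dTAG-13 in the first line and higher in the second, without passing the test in either.

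Asns, which makes asparagine from aspartate and glutamine, fell in both assays. RNA-seq gave 787 and 809 CPM in DMSO and 546 and 602 CPM after dTAG-13 in the GABPA line (log2 change -0.48 ± 0.0560, adjusted p = 2.2e-06). The GABPB1/GABPB2 line went from 593 and 619 CPM to 533 and 537 CPM (log2 change -0.18 ± 0.0559, adjusted p = 0.0415, lost when single libraries were left out), and the GABPB1 line lay at 519 and 524 CPM against 528 and 541 CPM. New Asns RNA went from 1520 and 1430 CPM to 415 and 368 CPM at 12 h (log2 change -1.91 ± 0.178, adjusted p = 1.51e-08). The other 4 DMSO libraries held 1000, 880, 721 and 818 CPM, so both treated libraries lay below all 6 control libraries.

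Aldh18a1, which starts proline synthesis from glutamate, fell in the GABPA line from 120 and 131 CPM to 76.3 and 80.0 CPM (log2 change -0.68 ± 0.0749, adjusted p = 9.99e-07) and in the GABPB1/GABPB2 line from 94.8 and 93.4 CPM to 83.1 and 72.5 CPM (log2 change -0.27 ± 0.0745, adjusted p = 0.0221, lost without single libraries). The GABPB1 line had 108 and 110 CPM against 117 and 108 CPM. New RNA went from 55.9 and 51.0 CPM to 26.2 and 22.1 CPM at 12 h (log2 change -1.12 ± 0.261, adjusted p = 0.00203). Pycr1, the last enzyme of proline synthesis, was not called in RNA-seq (log2 change -0.05) or in converted reads (log2 change -0.61), while all SLAM-seq reads fell at 12 h, from 40.6 and 37.9 CPM to 17.5 and 13.1 CPM (log2 change -1.35 ± 0.222, adjusted p = 0.000132). The transsulfuration enzymes parted: Cbs rose in RNA-seq of the GABPA line from 44.8 and 47.8 CPM to 89.8 and 81.0 CPM (log2 change 0.88 ± 0.0801, adjusted p = 1e-07), while Cth, the enzyme after it, was not called (log2 change -0.09, adjusted p = 0.21). New Cth RNA fell from 298 and 280 CPM to 152 and 142 CPM at 12 h (log2 change -0.97 ± 0.154, adjusted p = 3.34e-05), and Cbs was not called there (log2 change 0.53, adjusted p = 0.196). All SLAM-seq reads of Cbs went the other way from RNA-seq, from 41.0 and 41.8 CPM to 34.8 and 24.7 CPM (log2 change -0.47 ± 0.181, adjusted p = 0.036). Gpt2, a mitochondrial alanine transaminase, changed by -0.77 in new RNA (adjusted p = 0.0053), a call lost without the second DMSO library (adjusted p = 0.155), and was not called in RNA-seq of the GABPA line (log2 change -0.13, adjusted p = 0.176).

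Of the 6 genes of transport and tRNA export, Slc7a3 and the sparsely read Slc7a11 fell in RNA-seq of the GABPA line, while the other 4 were not called. Slc7a3, a carrier of cationic amino acids, went from 169 and 181 CPM to 120 and 124 CPM in the GABPA line (log2 change -0.52 ± 0.0605, adjusted p = 1.85e-06) and from 125 and 130 CPM to 104 and 108 CPM in the GABPB1/GABPB2 line (log2 change -0.26 ± 0.0607, adjusted p = 0.00733, lost without single libraries). In the GABPB1 line it had 179 and 179 CPM against 158 and 155 CPM and was not called. Its new RNA went from 170 and 129 CPM to 65.5 and 78.2 CPM at 12 h (log2 change -1.07 ± 0.205, adjusted p = 0.000293). Slc7a5 (LAT1), its heavy chain Slc3a2, the cationic carrier Slc7a1 and the tRNA exporter Xpot passed the test neither in RNA-seq of the GABPA line, with changes between -0.17 and 0.14, nor in converted reads at 12 h, with changes between -0.16 and 0.28. In all SLAM-seq reads at 12 h Slc3a2 (log2 change -0.61, adjusted p = 0.00531) and Xpot (log2 change -0.42, adjusted p = 0.0143) fell. In the GABPB1 line Slc7a1 rose by 0.24 and Gpt2 by 0.28 (adjusted p = 0.0496 and 0.0222), and both calls were lost without single libraries.

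Slc7a11, the cystine carrier, gave conflicting readings. RNA-seq counted 7 and 14 reads in DMSO and 0 and 2 after dTAG-13 in the GABPA line, 0.416 and 0.692 CPM against 0 and 0.118 CPM (log2 change -3.11 ± 0.873, adjusted p = 0.00744). The ratio of summed reads per library total was 0.105, with a 95% exact interval of 0.0119 to 0.428 that covers counting error only, and the call was lost without single libraries. The same ratio was 0.735 (0.342 to 1.51) in the GABPB1/GABPB2 line, from 0.436 and 0.547 CPM against 0.442 and 0.239 CPM, and 1.35 (0.836 to 2.2) in the GABPB1 line, from 0.663 and 0.409 CPM against 0.764 and 0.635 CPM. In SLAM-seq at 12 h, all reads instead rose, from 4.82 and 5.67 CPM to 12.5 and 21.2 CPM (log2 change 1.67 ± 0.320, adjusted p = 0.00047), while converted reads lay at 8.32 and 9.92 CPM against 6.02 and 8.50 CPM (log2 change -0.38, adjusted p = 0.532). The converted share of its reads was 25.3% in 12 h DMSO and 5.12% after 12 h of dTAG-13. What the additional reads are was not tested.

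**Figure D3:**
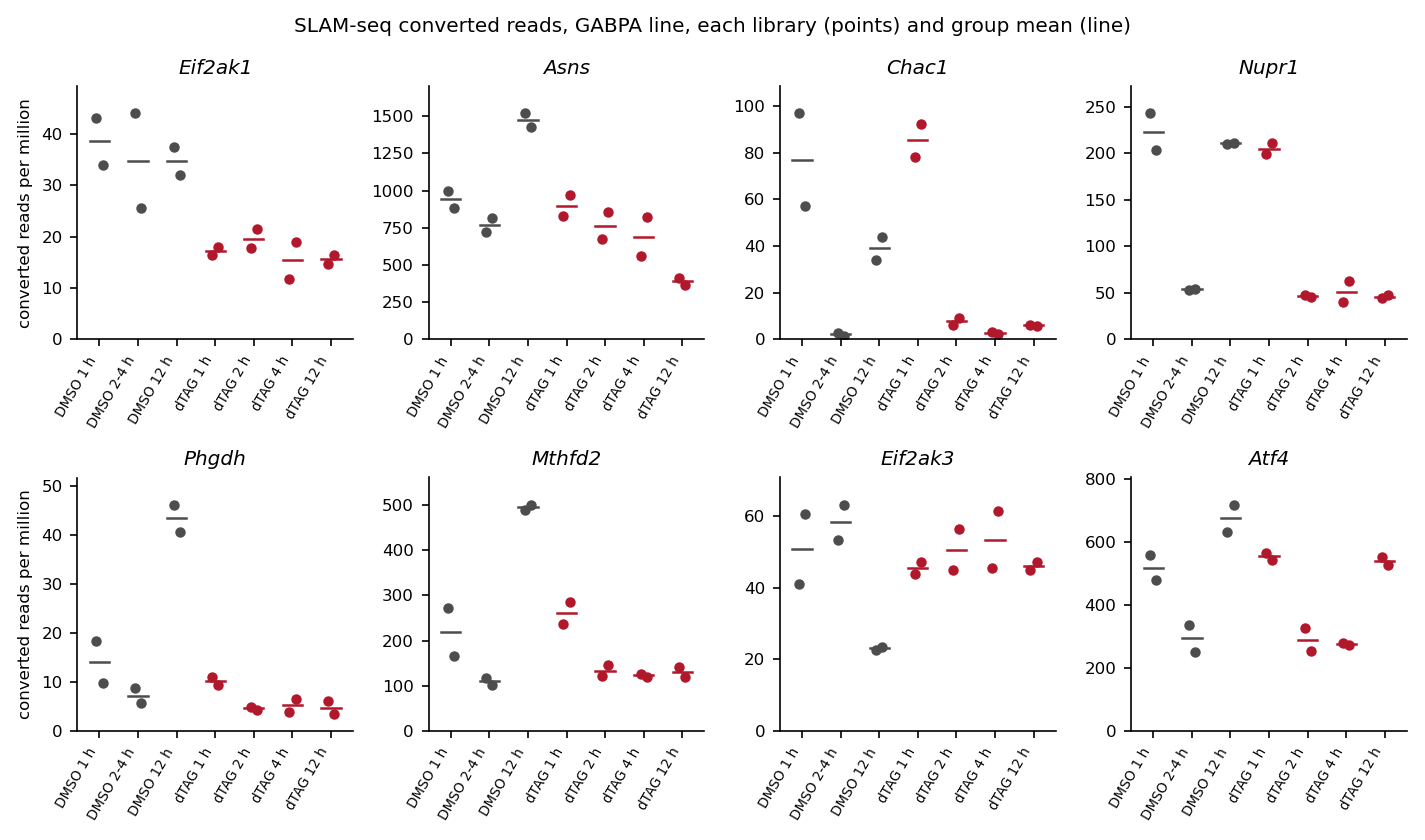
SLAM-seq level of converted reads (CPM, linear axis from 0) of selected genes in each of the 14 libraries of the GABPA line, the DMSO groups in grey and the dTAG-13 groups in red, each in order of time. Each point is 1 library and each line a group mean. For Asns the 12 h DMSO libraries, at 1520 and 1430 CPM, were the highest of all and the 12 h dTAG-13 libraries the lowest.

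In the first hours the treated libraries followed their own DMSO group, gene by gene. Asns had 826 and 969 CPM of converted reads after 1 h of dTAG-13, 671 and 853 CPM after 2 h and 560 and 822 CPM after 4 h. Psat1 had 183 and 144 CPM in 1 h DMSO against 188 and 188 CPM treated, then 92.0 and 110 CPM at 2 h and 74.0 and 85.6 CPM at 4 h. Mthfd2 had 273 and 166 CPM in 1 h DMSO against 236 and 286 CPM treated, then 121 and 145 CPM at 2 h and 127 and 120 CPM at 4 h. These enzyme genes were thus near their controls at every early time, and the level differed between the 1 h and the later libraries in treated and control cells alike.

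The remaining serine genes gave the same picture at lower counts. Phgdh had 18.3 and 9.81 CPM in 1 h DMSO against 10.9 and 9.46 CPM treated, then 4.91 and 4.28 CPM at 2 h and 3.95 and 6.58 CPM at 4 h. Psph had 111 and 60.6 CPM against 60.1 and 109 CPM at 1 h, and 34.1 and 43.9 CPM in the shared DMSO group against 36.2 and 42.1 CPM at 2 h and 31.6 and 42.4 CPM at 4 h. Shmt2 had 39.9 and 42.8 CPM against 57.4 and 42.0 CPM at 1 h, and 33.6 and 25.5 CPM in the shared DMSO group against 42.9 and 29.2 CPM at 2 h and 35.5 and 43.9 CPM at 4 h. The treated and DMSO libraries of Psph overlapped at each of these times.

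Among the regulators, Atf4 had 558 and 480 CPM in 1 h DMSO against 565 and 544 CPM treated, and 336 and 252 CPM in the shared DMSO group against 326 and 253 CPM at 2 h and 279 and 273 CPM at 4 h. Ddit3 had 50.7 and 38.3 CPM against 38.2 and 68.3 CPM at 1 h, and 38.5 and 29.6 CPM in the shared DMSO group against 45.4 and 37.1 CPM at 2 h and 36.5 and 38.0 CPM at 4 h. Nupr1 had 199 and 211 CPM treated at 1 h, 47.2 and 45.7 CPM at 2 h and 40.5 and 62.2 CPM at 4 h. None of these 3 genes passed the test before 12 h.

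Chac1 had the largest early change of the feedback genes. It lay at 97.0 and 57.1 CPM in 1 h DMSO against 78.3 and 92.5 CPM treated, and then 6.13 and 9.27 CPM at 2 h and 2.96 and 2.19 CPM at 4 h, against 2.75 and 1.53 CPM in the shared DMSO group. The 2 h difference (log2 change 1.81 ± 0.557, adjusted p = 0.0799) did not pass the test and rests on 5 and 3 converted reads in DMSO. Trib3 had 71.1 and 58.8 CPM against 63.7 and 87.2 CPM at 1 h, then 15.9 and 26.4 CPM at 2 h and 15.8 and 13.9 CPM at 4 h. Herpud1 had 205 and 166 CPM against 197 and 185 CPM at 1 h, then 47.8 and 48.5 CPM at 2 h and 40.5 and 32.2 CPM at 4 h. For Chac1, Trib3 and Herpud1 the step between the 1 h and the later libraries was larger than any difference between dTAG-13 and DMSO within a time before 12 h.

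The kinases other than Eif2ak1 stayed within their spread early on. Eif2ak3 had 41.0 and 60.6 CPM in 1 h DMSO against 43.7 and 47.3 CPM treated, and 53.4 and 63.2 CPM in the shared DMSO group against 44.8 and 56.4 CPM at 2 h and 45.4 and 61.5 CPM at 4 h. Eif2ak4 had 38.8 and 34.8 CPM against 40.1 and 27.3 CPM at 1 h, and 17.6 and 27 CPM against 23.3 and 24.3 CPM at 2 h and 23.7 and 29.3 CPM at 4 h. Eif2ak2 had 17.2 and 25.0 CPM against 23.7 and 18.9 CPM at 1 h, and 8.26 and 13.8 CPM against 8.59 and 8.56 CPM at 2 h and 9.87 and 12.4 CPM at 4 h. Eif2ak1 was thus the kinase whose treated libraries lay apart from its controls at 1 h, 2 h and 4 h.

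Proline synthesis and transport gave no early call either. Aldh18a1 had 45.3 and 45.5 CPM in 1 h DMSO against 31.0 and 50.4 CPM treated, and 24.8 and 27 CPM in the shared DMSO group against 22.1 and 19.3 CPM at 2 h and 35.5 and 17.6 CPM at 4 h. Slc7a3 had 116 and 119 CPM against 131 and 137 CPM at 1 h, and 40.2 and 53.5 CPM against 33.7 and 53.5 CPM at 2 h and 34.5 and 49.0 CPM at 4 h. Slc7a11 had 3.23 and 9.81 CPM against 9.10 and 10.5 CPM at 1 h, and 9.36 and 7.65 CPM against 14.7 and 8.56 CPM at 2 h and 10.9 and 11.7 CPM at 4 h. Stc2, with too few converted reads to be tested, lay between 0 and 3.64 CPM at these times and went from 6.01 and 9.92 CPM in 12 h DMSO to 1.68 and 0 CPM after 12 h of dTAG-13. In all reads Stc2 fell at 12 h from 3.05 and 3.65 CPM to 0.818 and 0.483 CPM (log2 change -2.29 ± 0.431, adjusted p = 0.000402).

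Set among all 6 DMSO libraries, most of the treated 12 h levels were not outside the control range, as over all genes. The converted share of all reads was 5.441 to 6.075% in 1 h DMSO, 10.421 to 11.347% in the shared DMSO group and 13.986 to 14.125% in 12 h DMSO. Converted levels of different times may therefore not be fully comparable. Both dTAG-13 libraries lay below every DMSO library for 5 of the 32 tested genes (Asns, Cth, Eif2ak1, Eif2s1 and Nupr1), against 12.8% of all genes. That count is near the share of all genes. They lay above every DMSO library for 1 gene (Xpot), against 9.83% of all genes, and the other 26 had at least 1 treated library inside the range. For genes called lower at 12 h but not among these 5, the fall was thus relative to the 12 h DMSO cells. Whether those cells or the shared DMSO cells are the usual state was not tested.

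At 12 h in the GABPA line, no gene called in RNA-seq as well as in converted reads had calls of opposite sign, whereas Cbs and Slc7a11 did between RNA-seq and all SLAM-seq reads. Of the 14 genes lower in RNA-seq, 13 could be tested in new RNA (not Stc2). Among these, 11 were lower in new RNA, which is 84.6% of the 13 and 61.1% of the 18 lower in new RNA. Over all 12609 genes tested in both, the same shares were 51.7% and 68.2%. Both genes that rose in new RNA, Ddit3 and Eif2ak3, also rose in RNA-seq, 40.0% of the 5 that rose there, beside 34.5% over all genes. The sizes differed: Asns changed by -0.48 in RNA-seq, -1.91 in converted reads and -2.08 in all SLAM-seq reads, and Chac1 by -0.85, -2.67 and -2.60. In all SLAM-seq reads 25 of the 35 genes were lower and 2 higher at 12 h, against 27.6% and 29.8% of all genes, with a median of -1.27 beside 0.14 over all genes. The larger change in SLAM-seq was therefore present in unconverted and converted reads together, in a separate set of libraries.

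**Figure D4:**
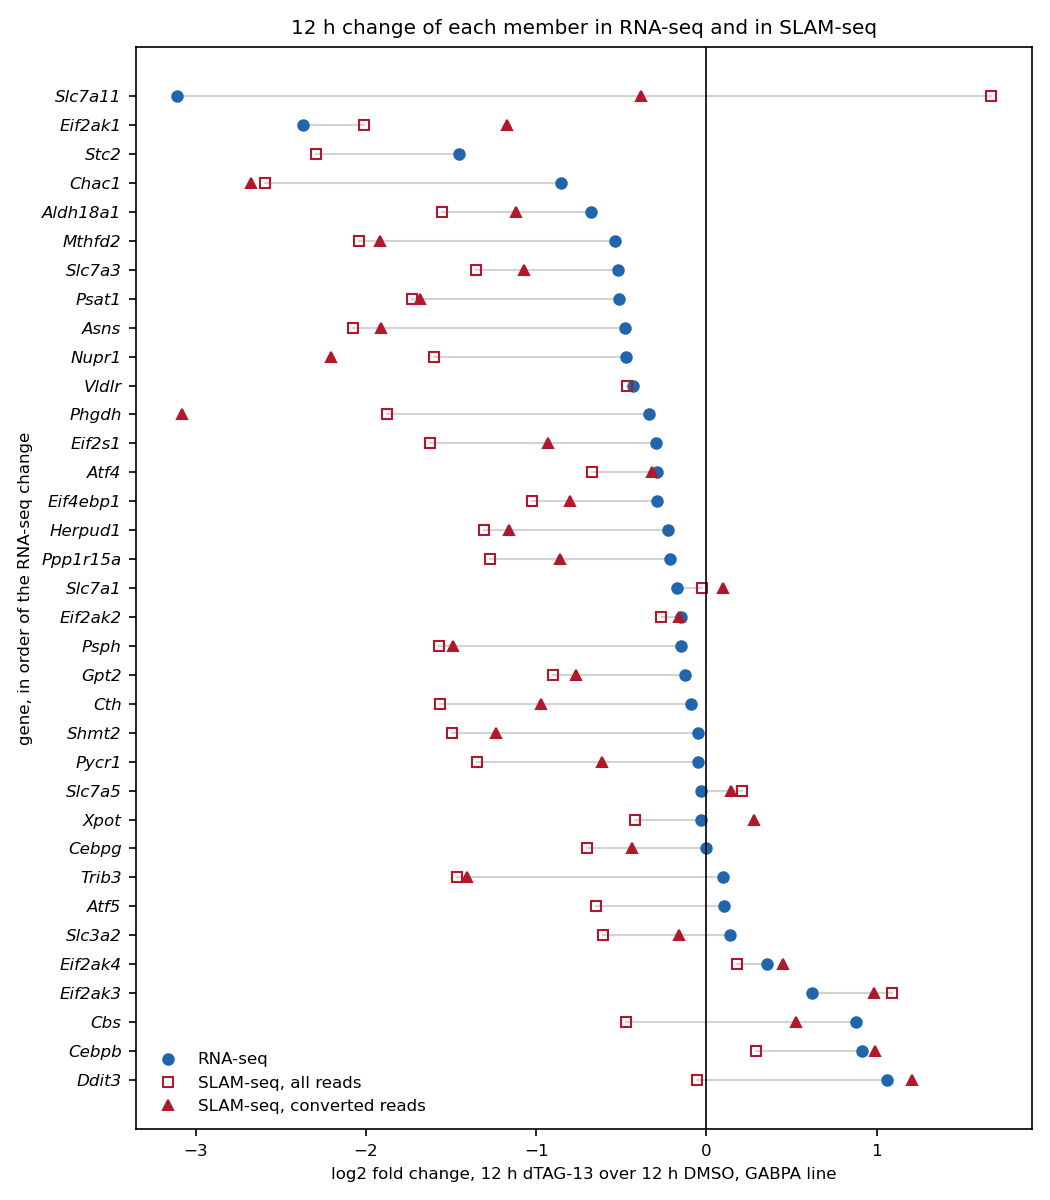
Change of each gene after 12 h of dTAG-13 in the GABPA line (log2 fold change, horizontal axis) in RNA-seq, in converted SLAM-seq reads and in all SLAM-seq reads, with genes in order of the RNA-seq change. Slc7a11 lay at -3.11 in RNA-seq and at 1.67 in all SLAM-seq reads, and Ddit3 at 1.06 in RNA-seq and -0.05 in all SLAM-seq reads.

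The responses of the lines differed beyond the spread for part of the list. Tested directly, the response of the GABPA line was above that of the GABPB1/GABPB2 line for 5 genes and below it for 6, against 10.1% and 10.7% of all genes. Against the GABPB1 line it was above for 3 and below for 15, against 12.5% and 13.3% of all genes. Eif2ak1 had the smallest p in both, with differences of -1.74 (adjusted p = 1.52e-08) and -2.14 (adjusted p = 2.58e-10). Against the GABPB1/GABPB2 line the others were Cbs, Psat1, Cebpb, Aldh18a1, Asns, Mthfd2, Eif2ak3, Ddit3, Trib3 and Slc7a3, in order of p. When single libraries were left out, the counts ran from 2 to 6 above and from 3 to 9 below, and of the 11 genes Eif2ak1, Cbs and Psat1 were called each time. Ddit3 had an adjusted p of 0.151 without the second DMSO library of the GABPA line, and Trib3 0.212 without the second dTAG-13 library of the GABPB1/GABPB2 line. Chac1 differed by -1.69 from the GABPB1 line (adjusted p = 0.000523), having fallen in the GABPA line and risen in the GABPB1 line. The 12 h response in new RNA was below the 1 h response for 15 genes and above it for 1 (Eif2ak3), each with its own DMSO group. Of all genes 4.7% were below and 2.14% above in this fit on converted reads. The shares of all genes in the other fits that follow are not given. Leaving out single libraries gave 6 to 14 below and 0 or 1 above, all reads gave 23 below, and the call of Eif2ak3 was lost by DESeq2 and without the low-count filter. Chac1, Mthfd2, Nupr1, Psat1, Asns and Trib3 were called in each fit that left out 1 library.

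The untreated lines also differed from each other. DMSO cells of the GABPA line differed from those of the GABPB1 line for 22 of the 35 genes, against 61.2% of all genes, and those of the GABPB1/GABPB2 line for 11, against 30.0%. Both counts were near the share of all genes, so they are not particular to this list. In the GABPA line Cth was 1.82, Nupr1 1.2 and Mthfd2 1.06 higher than in the GABPB1 line on the log2 scale, and Stc2 stood at -1.83. Line and degron cannot be told apart in this design, so a smaller response in a partner-subunit line also starts from a different level.

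Genes of this list also differed in how much of their RNA was new. In 12 h DMSO the converted share was 54.0% for Herpud1, 53.8% for Chac1, 51.8% for Cebpg and 48.0% for Trib3, against a median of 17.9% over all genes. It was 38.8% for Atf4. At the other end stood Pycr1 at 3.31%, Eif2ak1 at 4.51%, Cbs at 5.78%, Phgdh at 6.42%, Shmt2 at 7.05%, Psat1 at 8.69% and Asns at 9.94%. The order in 12 h DMSO did not follow role throughout: Ddit3 (11.3%), Eif4ebp1 (13.8%) and Nupr1 (16.7%) lay below the median, and the enzyme genes Mthfd2 (18.2%) and Gpt2 (21.5%) above it. In the shared DMSO group, with a median of 15.0%, these genes lay on the same sides. In 1 h DMSO, with a median of 7.07%, Ddit3 (8.47%) lay above it and Mthfd2 (5.17%) and Gpt2 (6.47%) below it. The share also depends on how many T bases a read covers, which was not measured here.

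Other genes of the pathway, outside the list, were counted in the same fits. Counts in RNA-seq of the GABPA line are to be read against 21.9% of all genes lower and 24.6% higher, and those in new RNA at 12 h against 18.3% and 12.3%. Of 16 tested genes of eIF2, its exchange factor eIF2B, the phosphatase and the kinase cofactors, 8 fell and 0 rose after 12 h without GABPA in RNA-seq, while 5 fell and 0 rose in the GABPB1/GABPB2 line, against 9.26% and 3.53% of all genes. At an unadjusted p under 0.05 edgeR also gave 0 higher in both, and so did DESeq2. Dele1, which carries the mitochondrial stress signal to HRI, changed by -2.12 (adjusted p = 1.46e-11), and Oma1, the protease that releases it, by -1.01 (adjusted p = 4.37e-06; named after its value was seen). Eif2b2, an eIF2B subunit, changed by -1.90 and Impact, an inhibitor of GCN2, by -1.22. In new RNA 8 of the 16 fell at 12 h, Impact already at 1 h (log2 change -1.44, adjusted p = 0.000694) and with it Eif2b2 at 2 h (-1.67 and -1.26).

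The 20 cytosolic aminoacyl-tRNA synthetases, which charge tRNA and include known ATF4 targets, had 11 genes lower and 0 higher in RNA-seq of the GABPA line, with a median of -0.23 beside 0.06 over all genes, and 12 lower and 0 higher in new RNA at 12 h, with 0 higher also at an unadjusted p under 0.05 and by DESeq2 in both. Rars changed by -2.15, Kars by -1.55, Hars by -1.48 and Wars by -1.11 in RNA-seq. Kars was lower in new RNA at 1 h (log2 change -0.86, adjusted p = 0.0161), and Rars, Kars and Hars at 2 h (-1.65, -1.34 and -0.90). Other genes reported as ATF4 targets or partners split, with 6 of 18 higher and 6 lower. Ddit4, an inhibitor of mTORC1, changed by 3.20, Txnip, a regulator of glucose uptake, by 1.73 and Sesn2, a leucine sensor, by 1.52. These named genes all rose, and none of the 6 that fell is named here. The synthetase gene Nars is both in this list and in that of the synthetases. The ATF6 and XBP1 arms of the unfolded protein response had 7 of 20 higher and 4 lower, led by the chaperone gene Canx (0.67), and 4 of 20 is near the share of all genes that fell. Among 17 folate and one-carbon genes outside the list 5 rose and 6 fell, with Tyms, thymidylate synthase, at -1.98, Shmt1, the cytosolic partner of Shmt2, at -1.12 and Aldh1l1, a folate dehydrogenase, at 1.41.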

How the data were processed

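RNA-seq and SLAM-seq tables of 26 of the 92 samples in the labels were used, and the other 66 were not used here. The authors deposited RSEM expected counts and TPM per gene for RNA-seq. For SLAM-seq they deposited slamdunk read counts, all reads and those with T-to-C conversions, over GENCODE vM32 gene intervals, per the file headers. Trim Galore 0.6.7, STAR 2.7.11a and RSEM 1.3.1 are named in the submitters' processing notes, and slamdunk 0.4.3 in the header of the SLAM-seq counts. Per the labels' protocols the SLAM-seq libraries read 3' ends, so CPM of the 2 assays are not comparable as levels. The 4-thiouridine labelling time and the strand handling are not given in the sources used here.

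Expected counts were rounded to whole counts. Each assay was fitted once over all its libraries with edgeR 4.0.16 (R 4.3.3; TMM, filterByExpr with minimum counts 10 and 15, quasi-likelihood test on group means). Adjustment ran over 16396 (RNA-seq) and 15887 (SLAM-seq) genes; DESeq2 1.42.0 was an alternative. Symbols matched 52029 of the 56953 gene identifiers. The test was also run on counts simulated with a spread shared by all groups, and the outcome is not given here. Replicates of every group differed beyond counting noise, and not equally. The chi-square per gene between duplicates was 16.128 for DMSO of the GABPB1/GABPB2 line and 3.117 to 6.558 in the other RNA-seq groups. The shared estimate of the spread does not follow such differences between groups.

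The 35 genes, the role groups and the pathway lists were chosen with earlier results of these data known. Every gene of the list is named. Values in every library are given for Atf4, Atf5, Ddit3, Trib3, Chac1, Asns and the 4 kinases. The same holds for each gene called against DMSO with a change of at least 1 in size. Ranges stand in for some libraries, as for Atf5 and Stc2 in SLAM-seq and Eif2ak2 in the partner-subunit lines. Up to 4 genes by smallest adjusted p are named from each pathway list, and every gene called is named for differences between responses.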

Additional observations from a re-analysis of the deposited data

Results flagged for a closer look

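The genes below were singled out because their response differed between lines, or between 12 h and 1 h, by a direct test of the difference (edgeR's quasi-likelihood test, adjusted p under 0.05). Values are differences of log2 fold changes.

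Taking the GABPB1/GABPB2 response from the GABPA response gave -1.74 for Eif2ak1, -0.41 for Aldh18a1, -0.36 for Psat1, -0.34 for Mthfd2, -0.29 for Asns and -0.26 for Slc7a3. The values were 1.15 for Cebpb, 0.89 for Ddit3, 0.70 for Cbs, 0.42 for Eif2ak3 and 0.41 for Trib3. Only Eif2ak1, Cbs and Psat1 were called in each fit that left out 1 library.

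Against the GABPB1 line the difference was -3.50 for Slc7a11, which rests on few reads, -2.14 for Eif2ak1, -1.69 for Chac1, -0.85 for Stc2, -0.73 for Aldh18a1, -0.72 for Nupr1 and -0.70 for Mthfd2. It was -0.61 for Psat1, -0.51 for Asns, -0.41 for Slc7a1, -0.40 for Gpt2, -0.40 for Psph, -0.38 for Atf4, -0.33 for Slc7a3 and -0.30 for Phgdh. On the positive side stood Ddit3 at 0.88, Cbs at 0.71 and Eif2ak3 at 0.43. Of these 18 genes, 8 lost their call at least once when single libraries were left out (Ddit3, Phgdh, Psph, Slc7a11, Nupr1, Stc2, Gpt2 and Eif2ak3).

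Taking the 1 h from the 12 h response in newly made RNA gave -2.83 for Chac1, -2.65 for Phgdh, -2.17 for Mthfd2, -2.09 for Nupr1, -1.89 for Psat1 and -1.84 for Asns. It was -1.62 for Trib3, -1.50 for Shmt2, -1.47 for Psph, -1.32 for Cebpg, -1.29 for Ppp1r15a, -1.25 for Slc7a3 and -1.2 for Herpud1. It was -0.96 for Cth, -0.81 for Eif2s1 and 1.16 for Eif2ak3. Of these 16 genes, 10 lost their call at least once when single libraries were left out. Eif2ak1 is absent from these genes, and its changes at 1 h and at 12 h were -1.16 and -1.17. The 1 h and 12 h DMSO groups differ for many of these genes, and the part of that in the differences was not tested.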

How the results depend on the processing

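In the GABPA line, without single libraries, 5 to 6 rose and 10 to 16 fell in RNA-seq, and 17 to 18 fell in new RNA at 12 h, or 25 in all reads. Calls lost there without a single library were Chac1, Slc7a11, Nupr1, Eif4ebp1 and Eif2s1 in RNA-seq (without dTAG-13 library 1, Eif2s1 had an adjusted p of 0.0541) and Gpt2 and Ppp1r15a (adjusted p = 0.0591) in new RNA. Ddit3 reversed at 12 h in all reads, at -0.053.

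In the GABPB1 line 13 genes rose with its own libraries alone and 0 to 1 without single libraries. The number that fell was 1 with DESeq2 size factors, 1 without the low-count filter, 1 with a replicate block, 1 by DESeq2 and 0 to 1 without single libraries. In the GABPB1/GABPB2 line 2 fell with its own libraries alone, 3 to 10 without single libraries, and 0 to 1 rose. At 4 h in new RNA 1 fell without the filter and 1 in all reads, and 0 to 1 without single libraries. For the GABPA minus GABPB1/GABPB2 difference 2 were higher with own libraries, and 2 to 6 higher and 3 to 9 lower without single libraries. For GABPA minus GABPB1 1 to 3 were higher without single libraries. For 12 h minus 1 h 0 were higher without the filter, 0 by DESeq2, 2 in all reads and 0 to 1 without single libraries, and 23 were lower in all reads and 6 to 14 without single libraries. The DMSO difference of the GABPB1/GABPB2 and GABPB1 lines had 6 to 11 calls without single libraries. For the SLAM-seq DMSO groups, 24 calls (12 h) became 19 and 22 calls (1 h) became 11 on converted reads, where the medians over all genes were -0.02 and -0.01, and 21 to 25 and 16 to 20 remained in number without single libraries. CCGGAAGT in place of CCGGAAG left 2 genes. For the alternative fits of this paragraph the shares of all genes called are not given here. Their counts therefore cannot be set against the shares of the main fit.

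The labels do not say that replicate numbers pair libraries, and the correlation of same-numbered libraries ran from -0.082 to 0.372. With the replicate block 3 genes rose and 1 fell in the GABPB1 line, and other counts against DMSO did not change. Where a group has 1 library left, it is assumed to vary like the others. Depth limits Slc7a11, Chac1, Cebpb and Stc2 most.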
